A study of Mus musculus with 7 samples.

Results

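The 10 immediate early genes Fos, Fosb, Jun, Junb, Egr1, Atf3, Ier2, Nr4a1, Dusp1 and Zfp36 were followed through RNA sequencing of 7 mouse prostate samples. They were picked by symbol, and the deposited tables held 10 of 10 among 16019 genes. Every sample came from a mouse immunised to bring on experimental autoimmune prostatitis, so none is from a mouse without this disease model. How inflamed each gland was is not given here. In 4 of them the mice had received LIT-927, a compound that neutralises CXCL12, the chemokine ligand of the receptor CXCR4, by injection into the peritoneum at 25 mg/kg per day. In the other 3 they had received its solvent, methyl-β-cyclodextrin, called vehicle here. Both treatments ran for 14 days. The sources used here do not give strain, age or immunisation scheme. Nor do the labels state that the samples are different animals, and the spread behind every p-value may therefore be technical in part.

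Immediate early genes are switched on within minutes by growth factors, chemokines, mechanical strain or stress, without need for new protein. MAP kinases act on serum response factor and its ELK partners and on CREB, which are already in place at the promoters. Most of the products are transcription factors that start a second wave of genes, while others end the signal, and the transcripts themselves decay fast. CXCL12 acting on CXCR4 is among the signals that activate the ERK branch of this cascade. Whole tissue cannot tell fewer cells of a type from less RNA per cell.

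The bases just before the transcription start hold some of the elements through which such genes are induced. Sequences for 8 of the 10 members were matched by symbol in a RefSeq table on build GRCm38.p6, and 5 of them are printed here to set Fos, Jun and Nr4a1, whose mean transcript levels were lower with LIT-927, beside Dusp1 and Junb, whose mean differences were smaller. Each runs 5′ to 3′ on the strand of its gene and ends at the base before the RefSeq start, except that of Dusp1, which leaves out bases in an annotated exon. The windows of Nr4a1 and Dusp1 lie within the spans that GENCODE gives these genes. Capitals mark TGACG, the core of the cAMP response element, on either strand (CGTCA where it reads on the other strand), the full element TGACGTCA, the Jun-type AP-1 site TGACATCA and the letters TATAAA. They lie at chr12:85473640-85473889 (Fos, plus strand), chr4:95052223-95052472 (Jun, minus strand), chr15:101266596-101266845 (Nr4a1, plus strand), chr17:26508520-26508722 (Dusp1, minus strand) and chr8:84978749-84978998 (Junb, minus strand).
Fos: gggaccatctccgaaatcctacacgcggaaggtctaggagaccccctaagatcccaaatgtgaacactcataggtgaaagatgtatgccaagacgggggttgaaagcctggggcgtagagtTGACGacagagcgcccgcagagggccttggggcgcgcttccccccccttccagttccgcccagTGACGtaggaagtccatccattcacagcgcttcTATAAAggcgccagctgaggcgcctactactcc
Jun: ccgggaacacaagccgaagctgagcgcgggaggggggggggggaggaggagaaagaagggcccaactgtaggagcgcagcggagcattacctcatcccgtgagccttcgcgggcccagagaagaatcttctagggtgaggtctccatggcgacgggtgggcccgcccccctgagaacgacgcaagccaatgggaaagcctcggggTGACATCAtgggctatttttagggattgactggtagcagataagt
Nr4a1: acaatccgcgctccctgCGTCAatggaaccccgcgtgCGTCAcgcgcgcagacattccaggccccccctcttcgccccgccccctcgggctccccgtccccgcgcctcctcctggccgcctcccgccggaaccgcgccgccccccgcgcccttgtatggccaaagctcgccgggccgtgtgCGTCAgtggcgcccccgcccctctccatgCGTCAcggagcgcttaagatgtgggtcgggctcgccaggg
Dusp1: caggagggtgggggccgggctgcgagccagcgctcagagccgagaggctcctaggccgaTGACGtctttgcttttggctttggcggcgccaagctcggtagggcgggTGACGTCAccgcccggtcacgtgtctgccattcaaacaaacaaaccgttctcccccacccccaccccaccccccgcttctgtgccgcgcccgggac
Junb: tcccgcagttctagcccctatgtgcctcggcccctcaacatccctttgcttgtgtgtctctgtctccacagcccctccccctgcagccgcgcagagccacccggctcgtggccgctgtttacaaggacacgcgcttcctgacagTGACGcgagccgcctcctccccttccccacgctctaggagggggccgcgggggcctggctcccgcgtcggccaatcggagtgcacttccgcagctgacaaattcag

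The core TGACG was present in 6 of the 8 promoters (Fos, Fosb, Junb, Atf3, Nr4a1 and Dusp1), against 17.9% of 27025 promoters searched over the same 250 bases. Nr4a1 held 4 copies. The full element contains the core and was found only in Dusp1 among the 8, against 1.62% of all promoters. Jun had no such core, and its TGACATCA, the AP-1 element through which Jun protein is known to act on its own gene, occurred in 3.02% of all promoters. The common AP-1 site TGANTCA was in 0 of the 8, and the CArG box, which serum response factor binds, was in Zfp36 alone (1.4% of all promoters). Such matches describe letters in these windows and do not show that a factor was bound. Bases further upstream were not searched, and Egr1 and Ier2 had no sequence to search. A site missing here may therefore lie elsewhere at the gene.

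Transcript levels differed widely between the members. FPKM are fragment counts divided by gene length and by the depth of the library, so levels can be set between genes. With LIT-927 the means ran from Ier2 (21.2 FPKM), Junb (20.1) and Zfp36 (17.0) through Dusp1 (8.61), Jun (8.58) and Atf3 (7.99) to Egr1 (3.19), Nr4a1 (2.20), Fos (1.25) and Fosb (0.0835). With vehicle the order was Junb (21.6 FPKM), Ier2 (18.3), Jun (15.3), Zfp36 (14.9), Atf3 (10.8), Dusp1 (9.08), Egr1 (3.80), Nr4a1 (3.63), Fos (3.06) and Fosb (0.201). Neighbours in these orders lay within an SD of each other, except Zfp36 and Dusp1 and Atf3 and Egr1 with LIT-927, Dusp1 and Egr1 with vehicle, and Fos and Fosb with both. Jun stood beside Dusp1 and Atf3 in the LIT-927 order and beside Zfp36 in the vehicle order.

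**Figure D1:**
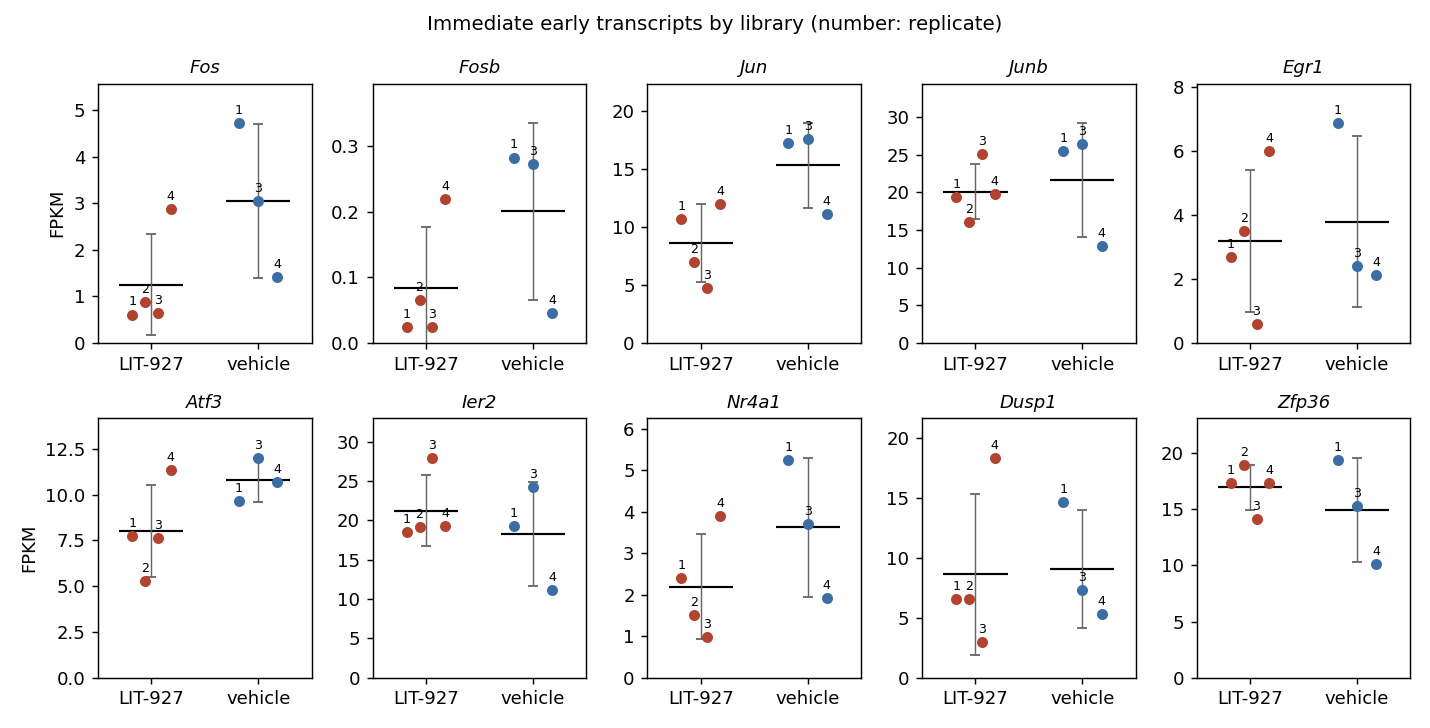
FPKM of the 10 transcripts in each library, with LIT-927 libraries left and vehicle libraries right in every panel. Points carry the replicate number, black bars are group means, grey bars are SDs (n = 4 and 3), and the groups overlap in all 10 panels.

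The comparison asks how these transcripts differed between 14 days of LIT-927 and of vehicle in the prostate of mice with this disease model. Whether CXCL12 was neutralised in these glands is not known from the data used here. Mean log2(FPKM + 1) was lower with LIT-927 for 8 of the 10, against 44.5% of all genes, and higher for Ier2 and Zfp36. None passed the test after adjustment: limma called 0 of 10 members at an adjusted p under 0.05, where it called 0 of 16019 genes in either direction (0%). At an unadjusted p under 0.05, 1 member (Jun) was lower, against 2.96% of all genes, and 0 were higher, against 0.718%. The median difference over the 10 members was -0.22 on the log2(FPKM + 1) scale, against 0.02 over all genes. In no member did every LIT-927 library lie below every vehicle library, as 2.12% of all genes did, and in none did every LIT-927 library lie above, as 1.08% did.

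Jun encodes the main dimer partner of FOS in the AP-1 transcription factor. It was at 10.7, 6.98, 4.70 and 12 FPKM in LIT-927 replicates 1 to 4 and at 17.2, 17.6 and 11.1 FPKM in vehicle replicates 1, 3 and 4. LIT-927 replicate 4 lay above vehicle replicate 4, and the other LIT-927 libraries lay below all vehicle libraries. It averaged 8.58 ± 3.34 FPKM in the LIT-927 samples and 15.3 ± 3.6 FPKM in the vehicle samples (SD, n = 4 and 3). The difference was -0.81 on the log2(FPKM + 1) scale (SE 0.33; 95% interval -1.59 to -0.03; limma adjusted p = 0.998). The exact permutation test over the 35 divisions of the libraries gave p = 0.143, two-sided. Its unadjusted limma p of 0.043 did not stay under 0.05 without LIT-927 replicate 2 (0.094) or 3 (0.079), or without vehicle replicate 1 (0.116) or 3 (0.13). Without LIT-927 replicate 3 and vehicle replicate 3 together, the libraries rich in uroplakin transcripts, the difference of Jun was -0.48 (SE 0.34).

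Fos, the partner of JUN, was far scarcer. It was at 0.609, 0.885, 0.635 and 2.88 FPKM in LIT-927 replicates 1 to 4 and at 4.72, 3.04 and 1.41 FPKM in vehicle replicates 1, 3 and 4. The first 3 LIT-927 libraries lay close together below all vehicle libraries, and LIT-927 replicate 4 lay within the vehicle range. It averaged 1.25 ± 1.09 FPKM in the LIT-927 samples and 3.06 ± 1.65 FPKM in the vehicle samples (SD, n = 4 and 3). On the log2 scale that was -0.87 (SE 0.41), with a 95% interval of -1.83 to 0.09, an exact permutation p = 0.114 and a limma adjusted p = 0.998. It rested on 42 to 335 fragments per library. Fosb, a close relative of Fos with the same partners, rested on 3 to 36 fragments, and its levels in LIT-927 libraries were 0.0243, 0.0648, 0.0247 and 0.220 FPKM, against 0.283, 0.274 and 0.0450 FPKM in vehicle libraries. Its LIT-927 replicate 4 again stood nearest the 2 higher vehicle libraries, while vehicle replicate 4 lay within the LIT-927 range.

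Nr4a1, an orphan nuclear receptor that restrains inflammatory programmes in macrophages, had the same 3 highest libraries as Fos, vehicle replicates 1 and 3 and LIT-927 replicate 4. It was at 2.41, 1.51, 0.979 and 3.89 FPKM in LIT-927 replicates 1 to 4 and at 5.25, 3.71 and 1.91 FPKM in vehicle replicates 1, 3 and 4, so the groups overlapped. The difference was -0.55 (SE 0.40; 95% interval -1.47 to 0.37; exact permutation p = 0.229). Atf3, a stress-induced member of the ATF/CREB family that represses many inflammatory genes, was at 7.72, 5.28, 7.61 and 11.4 FPKM with LIT-927 and at 9.66, 12 and 10.7 FPKM with vehicle. Here 3 of 4 LIT-927 libraries lay below the vehicle range and LIT-927 replicate 4 lay inside it, and the difference was -0.43 (95% interval -1.03 to 0.18; SE 0.26; exact permutation p = 0.171).

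Egr1 and Dusp1 had the largest spread within groups of the 10 members on the log2 scale. Egr1, a zinc finger factor induced through serum response elements, was at 2.68, 3.50, 0.588 and 5.99 FPKM with LIT-927 and at 6.88, 2.39 and 2.12 FPKM with vehicle. Dusp1, a phosphatase that switches off p38, JNK and ERK, was at 6.56, 6.59, 2.98 and 18.3 FPKM with LIT-927 and at 14.6, 7.27 and 5.31 FPKM with vehicle. In both, LIT-927 replicate 4 and vehicle replicate 1 were the highest libraries and LIT-927 replicate 3 was the lowest. The differences of -0.25 (Egr1; 95% interval -1.53 to 1.04) and -0.20 (Dusp1; 95% interval -1.47 to 1.07) were smaller than the SD within groups, 0.837 and 0.842, on the same log2 scale. That within-group SD was 0.437 for the median member and 0.318 for the median gene of the table. It was 0.368 for the median gene at 1 FPKM or more in 3 libraries, a set that holds 9 of the 10 members.

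Junb, Ier2 and Zfp36 were the most abundant members with LIT-927, and their differences lay near 0 or above it. Junb, an AP-1 subunit that can oppose JUN, was at 19.4, 16.1, 25.1 and 19.8 FPKM with LIT-927 and at 25.5, 26.5 and 12.9 FPKM with vehicle (difference -0.05; 95% interval -0.72 to 0.62). Ier2, a small nuclear regulator, was at 18.5, 19.1, 28 and 19.3 FPKM with LIT-927 and at 19.3, 24.3 and 11.2 FPKM with vehicle (difference 0.25; 95% interval -0.42 to 0.92). Zfp36 encodes tristetraprolin, which binds AU-rich elements and hastens the decay of cytokine messages. It was at 17.4, 18.9, 14.2 and 17.4 FPKM with LIT-927 and at 19.4, 15.2 and 10.1 FPKM with vehicle (difference 0.21; 95% interval -0.36 to 0.78). Vehicle replicate 4 was the lowest library for all 3 genes, and the groups overlapped in each.

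FPKM depend on what else fills a library. Seminal vesicle secretory genes summed to 563781 of 816215 FPKM in vehicle replicate 4 and to 51017 of 445417 FPKM in vehicle replicate 1. The 10 most abundant genes took 72.3% of the FPKM of vehicle replicate 4 and 22.2% of those of vehicle replicate 1, and the median-of-ratios factors, which measure where most genes of a library lie, were 0.665 and 1.31 in these 2 libraries and 0.813 to 1.16 in the LIT-927 libraries. Divided by these factors, the vehicle libraries came together in the mean over the members, though not in each member: their mean log2(scaled FPKM + 1) over the 10 members was 3.03, 2.99 and 2.97 in replicates 1, 3 and 4. LIT-927 replicates 1 to 3 were at 2.54, 2.57 and 2.55, and LIT-927 replicate 4 was at 3.01, among the vehicle libraries. The means were 2.67 ± 0.23 (SD, n = 4) with LIT-927 and 3.0 ± 0.03 (SD, n = 3) with vehicle, where the unscaled means were 2.70 ± 0.35 and 2.98 ± 0.42. The difference of the unscaled means was -0.28, and it was -0.10 when vehicle replicate 1 was left out, -0.17 without LIT-927 replicate 3, -0.45 without LIT-927 replicate 4 and -0.51 when vehicle replicate 4 was left out. The difference of the scaled means was -0.33, and it lay between -0.28 and -0.44 without any 1 library.

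**Figure D2:**
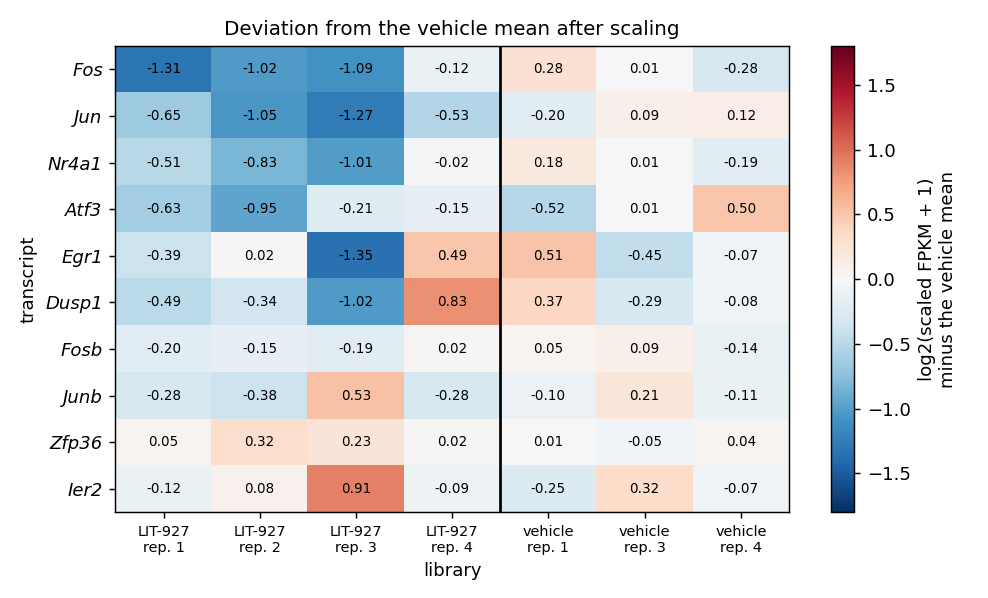
Log2(scaled FPKM + 1) of each transcript minus its vehicle mean, by library, with LIT-927 libraries left of the line. Fos is at -1.31, -1.02 and -1.09 in LIT-927 replicates 1 to 3 and at -0.12 in replicate 4, and Ier2 and Junb are highest in LIT-927 replicate 3 (0.91 and 0.53).

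After scaling Jun no longer overlapped. It was at 9.40, 6.88, 5.78 and 10.3 scaled FPKM in LIT-927 replicates 1 to 4 and at 13.1, 16.3 and 16.7 scaled FPKM in vehicle replicates 1, 3 and 4, and its LIT-927 mean was 0.526 times its vehicle mean. All LIT-927 libraries were thus below all vehicle libraries for 1 of 10 members, against 4.99% of all genes on this scale, and above for 0, against 4.04%. Means were lower for 8 of 10 members, against 49.7% of all genes. The difference of Jun was -0.87 (SE 0.20; 95% interval -1.36 to -0.38), with an exact permutation p = 0.0286, the smallest that 35 divisions can give, and a limma adjusted p = 0.568. Jun and Fos made 2 of 10 members that were lower at an unadjusted p under 0.05, against 5.51% of all genes. Fos was at 0.536, 0.872, 0.781 and 2.49 scaled FPKM with LIT-927 and at 3.61, 2.82 and 2.12 with vehicle, so of the LIT-927 libraries replicate 4 alone overlapped. Its difference was -0.89 (SE 0.31; 95% interval -1.62 to -0.16; exact permutation p = 0.0857; limma adjusted p = 0.574), and that of Nr4a1 was -0.59 (95% interval -1.19 to 0.01; exact permutation p = 0.0857). Atf3 overlapped more after scaling. It was at 6.79, 5.20, 9.36 and 9.81 scaled FPKM with LIT-927 and at 7.39, 11.1 and 16.0 with vehicle. LIT-927 replicate 3 thus joined replicate 4 inside the vehicle range. With limma's voom on the recovered fragments, whose log2 scale lacks the added 1 that compresses scarce transcripts, the difference of Fos was -1.53 (SE 0.49; limma adjusted p = 0.601). There 3 of 10 members (Fos, Jun and Nr4a1) were lower at an unadjusted p under 0.05, against 6.02% of all genes.

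**Figure D3:**
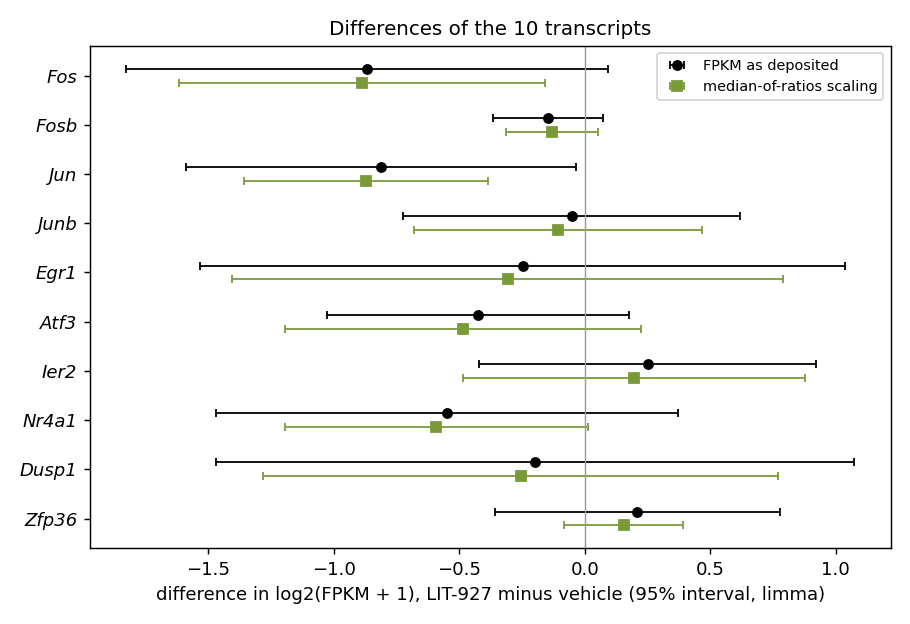
LIT-927 minus vehicle in log2(FPKM + 1) with 95% intervals from limma, on deposited FPKM (black circles) and after median-of-ratios scaling (green squares). The intervals of Jun lie below 0 on both scales, that of Fos after scaling only, and the other 8 members have intervals that include 0 on both.

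Ratios between members of the same library need no scaling. The ratio of Jun to Junb was 0.550, 0.433, 0.188 and 0.604 in LIT-927 replicates 1 to 4 and 0.673, 0.665 and 0.862 in vehicle replicates 1, 3 and 4. Every LIT-927 library was below every vehicle library for this ratio, and also for Jun over Ier2 (0.168 to 0.619 with LIT-927, 0.724 to 0.992 with vehicle) and Jun over Zfp36 (0.332 to 0.688 with LIT-927, 0.885 to 1.15 with vehicle). These 3 pairs were chosen after their values were seen. They make 3 of the 9 ratios of Jun to another member, whereas the same held for 55.1% of its ratios to the 14531 other genes found in all libraries. For Fos it held for 1 of 9 members, Dusp1 (0.0930 to 0.213 with LIT-927, 0.266 to 0.418 with vehicle), and for 13.9% of the other genes.

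**Figure D4:**
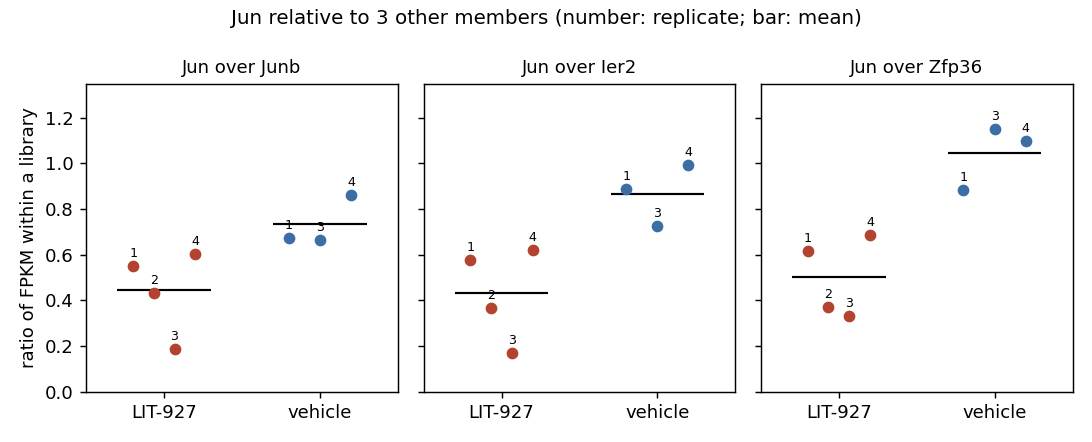
Ratio of Jun to Junb, Ier2 and Zfp36 in FPKM within each library, with LIT-927 left and vehicle right, replicate numbers beside the points and bars at the means. The highest LIT-927 ratio lies below the lowest vehicle ratio in each panel, with 0.604 against 0.665 for Junb.

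The other genes of the pathway were taken from lists. Of 14 further AP-1 and bZIP genes 8 were lower and 6 higher in mean, with 0 called and a median difference of -0.06. The 3 with the smallest p were the BATF factors of leukocytes, which pair with JUN proteins. Batf averaged 0.222 ± 0.153 FPKM in LIT-927 samples and 0.817 ± 0.292 FPKM in vehicle samples (SD, n = 4 and 3), and Batf3, a factor of cross-presenting dendritic cells, averaged 0.491 ± 0.296 and 1.58 ± 0.77 FPKM. These were the 2 of 14 whose groups did not overlap, against 2.12% of all genes, and they rested on 1 to 32 (Batf) and 3 to 59 (Batf3) fragments per library. Batf2 averaged 0.299 ± 0.20 and 0.944 ± 0.578 FPKM with overlap. Jund, the most abundant JUN or FOS gene of the list, and Fosl2, both named after their values were seen, averaged 64.5 ± 13.9 and 4.20 ± 1.2 FPKM in LIT-927 samples, against 59.3 ± 17.9 and 4.17 ± 1.03 FPKM in vehicle samples.

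Of 31 other primary response genes 19 were lower and 12 higher in mean, with 0 called and a median difference of -0.05. Klf2, a factor of quiescent endothelium and T cells, was at 5.88, 3.93, 2.09 and 6.78 FPKM in LIT-927 replicates 1 to 4 and at 13.1, 9.38 and 9.92 FPKM in vehicle replicates 1, 3 and 4. Its groups did not overlap, and the difference was -1.13 (SE 0.35; 95% interval -1.94 to -0.32; exact permutation p = 0.0571; limma adjusted p = 0.998). Socs3, an inhibitor of cytokine receptor signalling, averaged 0.530 ± 0.202 FPKM in LIT-927 samples and 1.03 ± 0.34 FPKM in vehicle samples (SD, n = 4 and 3). Egr3, a zinc finger factor of the Egr1 family, was the other of the 31 without overlap, and it rested on 3 to 29 fragments. Such genes made 2 of 31 here, against 2.12% of all genes. The NR4A relative Nr4a3, named after its values were seen, had an interval that covered both directions. It averaged 12.2 ± 6.9 FPKM in LIT-927 samples and 8.99 ± 6.31 FPKM in vehicle samples (difference 0.34; 95% interval -1.11 to 1.8).

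Of 15 MAP kinase phosphatases and feedback inhibitors 7 were lower and 8 higher, with a median difference of 0.04, and Dusp14 had the smallest p (1.63 ± 0.22 FPKM in LIT-927 samples, 1.05 ± 0.56 FPKM in vehicle samples). Of 25 upstream kinases and transcription factors 13 were lower and 12 higher, with a median of -0.02. Srf, which encodes serum response factor, averaged 11.1 ± 4.1 FPKM in LIT-927 samples and 14.1 ± 6.2 FPKM in vehicle samples, and its partner Elk3 averaged 2.09 ± 1.14 and 3.47 ± 2.04 FPKM. Of 9 genes in the list of ZFP36 relatives and AU-rich messages 5 were lower, and Ccl2, a chemokine that draws monocytes, averaged 0.469 ± 0.118 FPKM in LIT-927 samples and 1.8 ± 0.94 FPKM in vehicle samples, the 1 gene of 9 without overlap, against 2.12% of all genes. Of 15 heat shock genes 10 were lower, with a median of -0.16. Limma called 0 genes of these lists.

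Markers of tissue make-up varied between the same libraries. Summed FPKM of 10 smooth muscle markers ranged from 971 to 6676 with LIT-927 and from 3276 to 11508 with vehicle, those of 10 fibroblast markers from 125 to 443 and from 193 to 871, and those of 10 endothelial markers from 10.3 to 62.3 and from 35.2 to 134. All 3 sums were lowest in LIT-927 replicate 3, the library with the lowest Jun, Nr4a1, Egr1 and Dusp1, and highest in vehicle replicate 1, the library with the highest Fos, Fosb, Egr1, Nr4a1 and Zfp36. All 30 of these markers had lower means with LIT-927, with medians of -0.72 (smooth muscle), -0.98 (fibroblast) and -0.81 (endothelium), against -0.22 for the immediate early members. Macrophage markers summed to 51.0 to 140 FPKM in LIT-927 libraries and 137 to 365 FPKM in vehicle libraries, and those of T and NK cells, in which Batf is also transcribed, to 2.05 to 9.06 and 7.39 to 18.2 FPKM. Of these, 8 of 10 macrophage markers and 9 of 9 T and NK cell markers had lower means with LIT-927. At an unadjusted limma p under 0.05, 5 macrophage and 6 T and NK cell markers were lower, against 2.96% of all genes. Every LIT-927 library lay below every vehicle library for 1 macrophage marker and 3 T and NK cell markers, against 2.12% of all genes. Prostate luminal genes were present in every library, at 6413 to 166700 and 10053 to 74840 summed FPKM, beside seminal vesicle secretory genes at 142402 to 301495 and 51017 to 563781. These secretory sums hide a split between libraries. Svs1 reached 11062.5 FPKM (LIT-927 replicate 3), 11985 FPKM (vehicle replicate 3) and 25355.5 FPKM (vehicle replicate 4), and only 38.8 to 243 FPKM elsewhere. Svs3a and Svs3b divided the libraries likewise, while Svs2 and Pate4, named after their values were seen, did not. The sum of 5 uroplakins, proteins of the bladder lining, stood out in LIT-927 replicate 3 (328 FPKM) and vehicle replicate 3 (264 FPKM), against 26.8 to 43.6 FPKM elsewhere. Upk1a, named after its values were seen, made up most of it, with 253 and 172 FPKM, while Upk1b was no higher in LIT-927 replicate 3 (19.7 FPKM) than in LIT-927 replicate 4 (27.3 FPKM). Vas deferens genes had higher means for 4 of 4 measured (median 0.84), and their sum was 55.5 FPKM in LIT-927 replicate 3 and 187 FPKM in vehicle replicate 3, against 2052 to 20695 FPKM elsewhere. Basal epithelial markers were lower in mean for 7 of 7 (median -0.61) and summed to 29.4 to 48.4 FPKM in LIT-927 libraries and 34.0 to 112 FPKM in vehicle libraries. The part of tissue make-up in the differences of the members, of the BATF genes and of Klf2 was not tested. Without LIT-927 replicate 3 and vehicle replicate 3 the difference of the mean over the members was -0.12, against -0.28 with them.

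**Figure D5:**
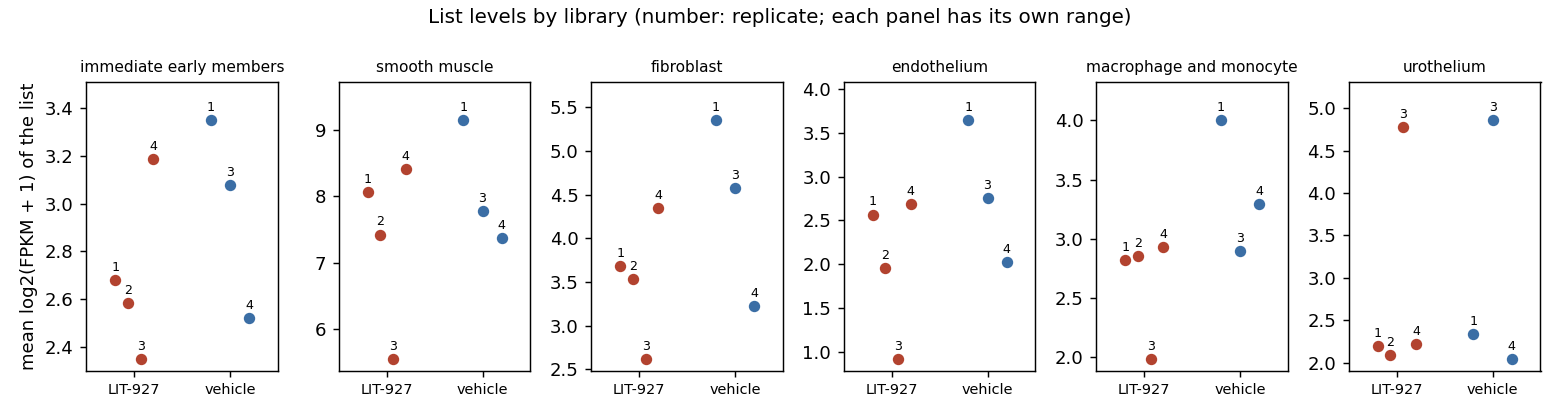
Mean log2(FPKM + 1) of the immediate early members and of 5 marker lists by library, with LIT-927 left, vehicle right and replicate numbers at the points. LIT-927 replicate 3 is lowest for the members (2.35) and for smooth muscle (5.56), fibroblast, endothelial and macrophage markers, and the urothelial list is high in replicate 3 of both groups.

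The 5 non-member genes whose log2(FPKM + 1) was most like the mean of the members over the 7 libraries were Ankrd52, Ptpn11, Tns2, Tnpo2 and Tm9sf3, with Pearson r of 0.982 to 0.997 as the measure of likeness, among 6687 genes with a mean of at least 5 FPKM. These values describe 7 libraries that also share shifts of the whole library. Ankrd52, the most alike (r = 0.997), averaged 5.06 ± 1.39 FPKM in LIT-927 samples and 6.16 ± 1.88 FPKM in vehicle samples (SD, n = 4 and 3). Ptpn11 (r = 0.988), the phosphatase SHP2 that carries growth factor signals to RAS and ERK, averaged 23.3 ± 5.8 FPKM in LIT-927 samples and 29.0 ± 7.4 FPKM in vehicle samples. Such likeness does not show a link to that pathway.

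On mm10 with GENCODE M21, Fos lies at chr12:85473890-85477273, Fosb at chr7:19302696-19310051, Jun at chr4:95049034-95052222, Junb at chr8:84974484-84978718, Atf3 at chr1:191170296-191218039, Ier2 at chr8:84661331-84662852, Nr4a1 at chr15:101254269-101274795, Dusp1 at chr17:26505590-26562128 and Zfp36 at chr7:28376784-28380253. Fos and Nr4a1 are on the plus strand and the others of these on the minus strand, and Jun and Ier2 have 1 annotated exon each. Some members share their locus with another gene. Junb overlaps Prdx2 on the opposite strand by 351 bases, and Jun overlaps the antisense transcript Junos by 689 bases. Zfp36 overlaps Gm44710, annotated as antisense, by 1274 bases, and Dusp1 overlaps Ergic1 by 640 and Gm8225 by 956 bases, all on the opposite strand. On its own strand Dusp1 overlaps AC122252.1, annotated as sense intronic, by 1853 and AC122252.4 by 227 bases. All these overlaps are of whole gene spans, introns included, and overlap of exons was not examined. The strand setting of the counting is not stated either, so whether reads of these neighbours entered the counts of the members is not known.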

How the data were processed

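Per the labels' protocols, TRIzol RNA of 7 mouse prostate samples went into VAHTS Universal libraries. Names listed in the submitters' processing notes are HISAT2, HTSeq, fastp and build mm10, while the sources used here do not give versions, settings, annotation, strand setting or filters. The values deposited by the authors are FPKM, a unit worked out from the values since the file headers say only expression. Whole fragments were recovered from the steps between low FPKM for 16019 of 16019 genes, within 0.01 fragments, and summed to 32023785 to 35240765 per library, so depth was even. They are the smallest whole numbers that fit the FPKM of a gene. Counts that share a common factor over the libraries would therefore be understated. Whether this happened was not checked, and voom used these counts.

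Samples were grouped by the treatment in the labels. The main test was limma 3.58.1 (R 4.3.3) with a mean-variance trend on log2(FPKM + 1) over all 7 libraries and all genes, without filter or covariate, with Benjamini-Hochberg adjustment over all genes and a threshold of 0.05. Differences are LIT-927 minus vehicle on that scale, which understates changes of low genes. Exact permutation tests of single genes were two-sided over the 35 divisions of the libraries into 4 and 3. The code was tested on simulated data.

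The members and gene lists were chosen with earlier results of these data known. All members are named. Of each other list the 3 genes with the smallest p could be named, and other genes so named are said to be chosen after their values were seen. Gene positions come from GENCODE M21, whose build equals mm10, and promoters from RefSeq on GRCm38.p6. Results were recomputed with 0.1 as pseudocount, with only genes at 1 FPKM or more in 3 libraries, after median-of-ratios scaling, with voom on the recovered fragments, with a replicate block, without each library in turn (scaled or not), and without the pair rich in uroplakin transcripts. Python 3.11.15 was used with SciPy 1.17.1, pandas 2.3.3, NumPy 2.4.6 and, for figures, matplotlib 3.10.9.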

Additional observations from a re-analysis of the deposited data

Results flagged for a closer look

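A single library stood far from the other 3 of the LIT-927 group in 5 of 22 sets of values checked for this, where chance flags about 1 in 20 groups. The sets are not independent, since the same libraries enter each. Fos in LIT-927 replicate 4, at 2.88 FPKM, lay far above the other 3. Ier2 in LIT-927 replicate 3 lay far above its group at 28 FPKM, and after scaling at 34.4. Junb in the same library did so after scaling, at 30.8 scaled FPKM. The mean over the members after scaling was highest in LIT-927 replicate 4, at 3.01.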

How the results depend on the processing

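Limma called 0 of 10 members and 0 of 16019 genes in the main setting and in each of 20 alternatives, over which the smallest adjusted p of a member was 0.388. At an unadjusted p under 0.05 there were 589 genes in the main setting and 1318 with voom. Fos, Fosb, Jun, Atf3 and Nr4a1 were lower with LIT-927 in all settings that held them (Fosb was removed by the filter). Fos ranged from -1.20 to -0.57 without any 1 library and from -1.13 to -0.73 with scaling, and Jun from -1.01 to -0.59 and from -0.98 to -0.75. Nr4a1 ranged from -0.85 (without vehicle replicate 4) to -0.30 (without vehicle replicate 1), Atf3 from -0.59 (without LIT-927 replicate 4) to -0.27 (without LIT-927 replicate 2) and Fosb from -0.24 (without vehicle replicate 4) to -0.094 (without vehicle replicate 1). With scaling Atf3 ranged from -0.74 to -0.24, without vehicle replicates 1 and 4 in turn. The sign of the rest turned in places, where the cause was not tested. Dusp1 ranged from -0.61 to 0.17, Egr1 from -0.56 to 0.18, Junb from -0.37 to 0.12, Ier2 from -0.047 to 0.48 and Zfp36 from -0.027 to 0.41 without any 1 library, and with scaling Egr1 from -0.57 to 0.040 and Ier2 from -0.045 to 0.36. Without both libraries with high uroplakin transcripts Dusp1 was at 0.058, Junb at 0.014 and Jun at -0.48. Members whose groups did not overlap numbered 0 as deposited and 1 with scaling, 0 to 4 without any 1 library and 1 to 6 with scaling and without any 1 library. As deposited, 3 lay below without LIT-927 replicate 4, and 4 did so when vehicle replicate 4 was left out, against 4.76% and 16.8% of all genes. Scaled, 6 did not overlap without LIT-927 replicate 4, with 5 below and Zfp36 above, against 9.98% and 8.54% of all genes. Without vehicle replicate 4 there were 5, with 4 below and Zfp36 above, against 11.9% and 8.30%. The median over all genes moved to 0.14 without vehicle replicate 1 and to -0.12 without vehicle replicate 4. Same-numbered libraries of the 2 groups deviated together for numbers 1 and 3 (r = 0.578 and 0.757 across 11060 genes, which are not independent replicates) but not for number 4 (r = -0.169). LIT-927 replicate 4 deviated together with vehicle replicate 1 (r = 0.64). The labels do not say whether the numbers pair the samples, and these values do not settle it. With the replicate block Junb turned to 0.044, the mean over the members was -0.24, 0 members were called and none, Jun included, had an unadjusted p under 0.05.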
